A study of Mus musculus with 10 samples.

Results

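The small nuclear, nucleolar and Y RNAs described here are Rnu5g (GenBank M10336), Rnu6 (M10329), Rnu3a (X56029), Snora74a (X94291), Rny1 (U34828) and Rny3 (U34827). Every spot whose gene symbol in the probe annotation, current or former, is among these 6 names was taken, which gave 12 spots of 15552, or 6 oligonucleotide features of 7776. These RNAs were chosen by their strain differences on these same arrays, among them the high level of Rnu5g in BL10, so the strain values of all 6 RNAs are given as a description, and no test of them is used as support. Quadriceps muscle came from 10 male mice of the inbred strains CBA/CaOlaHsd (CBA), C57Bl/10ScSnOlaHsd (BL10), C57Bl/6JOlaHsd (BL6), DBA/2OlaHsd (DBA) and BALB/cOlaHsd (BALB), 2 animals of each, killed at 8 weeks of age, with no treatment. On each array the RNA of 1 animal, in Cy5, competed with that of a mouse from a different strain, in Cy3, and BL10 1 denotes the animal of BL10 that carries the number 1. Of 10 arrays, 2 hold identical values under different labels (BL6 2 over CBA 1 and BALB 1 over CBA 2) and were left out. The other 8 arrays join CBA 1, BL10 1, BALB 2 and BL6 2 in a smaller chain, and CBA 2, BL10 2, DBA 1, BL6 1, DBA 2 and BALB 1 in a larger chain. Each BL10 animal was measured in both dyes, while both CBA animals were measured in Cy5 against BL10 only, so every CBA level depends on how the dye effect was estimated. The deposited values are ratios without spot brightness, and neither the absolute level of an RNA nor the muscle origin of the samples can be read from them. In whole muscle, fewer cells of a type and less RNA per cell cannot be told apart.

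These RNAs are never translated. U5 and U6, the products of Rnu5g and Rnu6, are parts of the spliceosome, where U5 holds the exon ends together and U6 forms the catalytic centre with U2. U5 is made by RNA polymerase II and carries a ring of Sm proteins, whereas U6 is made by RNA polymerase III and carries LSm proteins. Rnu3a encodes U3, a box C/D nucleolar RNA needed to cut the precursor of ribosomal RNA, and Snora74a encodes the H/ACA nucleolar RNA formerly named U19, which lies within the host gene Snhg4. Rny1 and Rny3 encode Y RNAs, polymerase III transcripts that bind the Ro60 and La proteins and take part in RNA quality control. None of these RNAs carries a poly(A) tail, and the labelling reaction used a random TN6 primer on total RNA. Small nuclear RNAs are encoded by many near-identical gene copies, so a feature named Rnu5g, Rnu6 or Rnu3a may have taken up the RNA of any copy. In the GRCm38.p6 annotation Rny1 and Rny3 are neighbours, with only a pseudogene between them.

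The levels of Rnu5g and Rny3 were higher in both BL10 animals than in the other strains of their chains, and that of Rny1 was clearly higher in BL10 1 alone. In log2 units, the BL10 level lay above the average of the remaining 4 strains by 2.37 for Rnu5g (SE 0.17), by 1.95 for Rny3 (SE 0.31), by 0.88 for Rny1 (SE 0.36) and by 0.35 for Rnu6 (SE 0.12). The same difference was −0.25 for Snora74a (SE 0.14) and −0.11 for Rnu3a (SE 0.13), the latter within its SE of zero. As folds, with the VSN values read as plain natural logs, BL10 held 5.18 times the U5 signal of the other strains and 3.86 times the Y3 signal. It held 1.84 times the Y1 signal and 1.27 times the U6 signal. Without spot brightness, how near these folds and those below lie to the true ones cannot be told. These are fitted differences with 2 animals in each strain. Over all 7697 features tested, the median of the same difference was −0.04, with 5th and 95th percentiles of −0.29 and 0.32, and the median over the 6 RNAs was 0.61. Rnu5g ranked second of all features by this difference (rank 2), Rny3 ranked 5, Rny1 20 and Rnu6 315, counted from the highest.

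At an FDR of 10%, limma's moderated F called 10 features between the strains, which is 0.13% of those tested, and the contrast of BL10 with the other 4 called 5 as higher, or 0.065%, and 0 as lower (without adjustment, p was under 0.05 for 587 features, counting both directions). Of the 6 RNAs, Rnu5g is in both sets and the other 5 are in neither. Because these contrasts led to the choice of the RNAs, nothing is read from this count. A BL10 difference above 1 was found for 0.182% of features, among them Rnu5g and Rny3, and one above 0.5 for 1.49%, which adds Rny1.

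**Figure D1:**
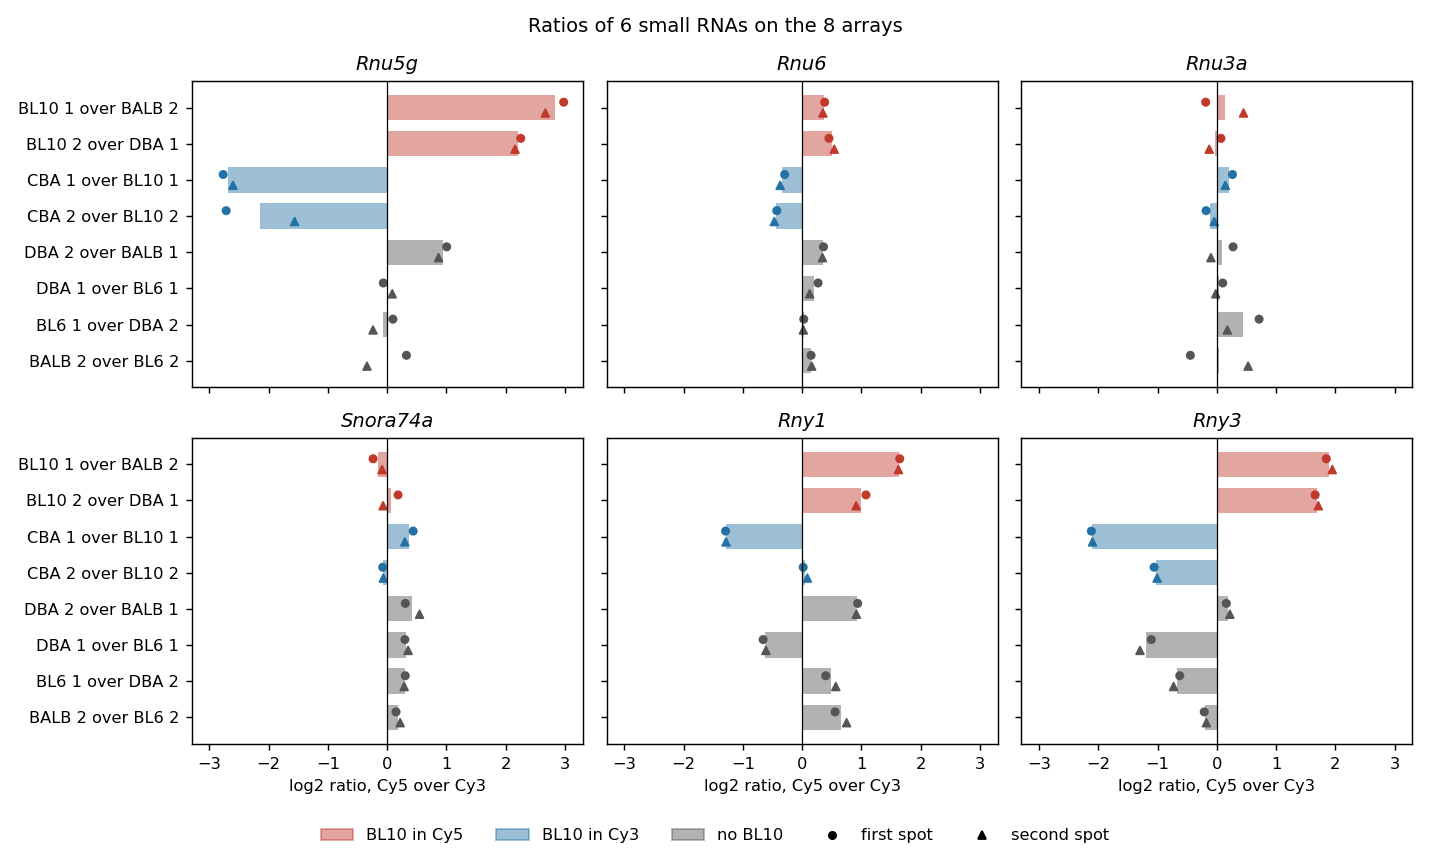
Log2 ratio of Cy5 over Cy3 for each RNA (panel) on each of the 8 arrays (row), with bars for the mean of the duplicate spots and symbols for the single spots, coloured by the dye that BL10 carried. For Rnu5g the 4 arrays with BL10 lie between 2.14 and 2.82 in size and turn sign with the dye, while the bars of Snora74a and Rnu3a stay within 0.44 of zero and their single spots reach 0.55 and 0.71.

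Among the spliceosomal RNAs, Rnu5g gave the clearest ratios. With BL10 in Cy5, the centred log2 ratio of Cy5 over Cy3 was 2.82 for BL10 1 over BALB 2 and 2.21 for BL10 2 over DBA 1. With BL10 in Cy3, it was −2.69 for CBA 1 over BL10 1 and −2.14 for CBA 2 over BL10 2. The sign turned with the dye, so BL10 was the higher partner on all 4 arrays. The 4 arrays without BL10 gave 0.94 for DBA 2 over BALB 1, 0.01 for DBA 1 over BL6 1, −0.07 for BL6 1 over DBA 2 and −0.01 for BALB 2 over BL6 2. The BL10 ratios and the others did not overlap in size, a pattern that 8 of the 7697 features (0.104%) show with BL10 as the higher partner. The duplicate spots of Rnu5g correlated at r = 0.972 over the 8 arrays, and the widest gap between them, 1.16 on CBA 2 over BL10 2 (−2.72 and −1.56), did not change the sign.

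Set against the average of all 5 strains, the levels of Rnu5g were 1.90 in BL10 (SE 0.14), −0.17 in DBA (SE 0.14), −0.33 in BL6 (SE 0.17), −0.67 in CBA (SE 0.24) and −0.73 in BALB (SE 0.16). BL10 stood 2.07 above DBA, the next strain (SE 0.24). Neighbours in the order of the other 4 strains differed by less than the sum of their SEs. Strains further apart in that order, such as DBA and BALB, differed by more than that sum. The difference of BL10 from BL6, the other strain of the C57 family here, was 2.23 (SE 0.28), with 2.50 in the smaller chain and 1.90 in the larger. Against the other strains of its own chain, BL10 1 stood at 2.67 and BL10 2 at 2.13.

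Rnu6 followed the same direction at a much smaller size. BL10 was the higher partner on all 4 of its arrays, by 0.37 over BALB 2, 0.50 over DBA 1, 0.33 over CBA 1 and 0.45 over CBA 2 on the log2 scale. BL10 was higher on all 4 of its arrays for 605 features, or 7.86% of those tested. Unlike Rnu5g, the ratios of Rnu6 overlapped in size with those of arrays without BL10, where DBA 2 over BALB 1 gave 0.35, DBA 1 over BL6 1 gave 0.20, BALB 2 over BL6 2 gave 0.16 and BL6 1 over DBA 2 gave 0.02. Duplicate spots of Rnu6 agreed closely, with a mean gap of 0.0517 and r = 0.984. Its strain levels ran from 0.28 in BL10 (SE 0.10) through 0.06 in DBA (SE 0.09), −0.02 in BL6 (SE 0.12) and −0.04 in BALB (SE 0.11) to −0.28 in CBA (SE 0.17), a range of 1.47-fold. DBA, BL6 and BALB lay within their SEs of each other. The BL10 excess was 0.30 in the smaller chain and 0.42 in the larger. It shrank to 0.13 when BL6 1 was left out and rose to 0.50 without BALB 2.

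The nucleolar RNAs did not share the high BL10 level, and neither was the lower partner on all 4 BL10 arrays, as 5.03% of features were. These nucleolar RNAs are also the longest here, at 212 nucleotides for Rnu3a and 198 for Snora74a, against 101 to 116 for the others. Snora74a gave −0.16 for BL10 1 over BALB 2 and 0.06 for BL10 2 over DBA 1, and it gave 0.37 for CBA 1 over BL10 1 and −0.07 for CBA 2 over BL10 2. The arrays without BL10 all lay above zero, from 0.18 to 0.43, and the dye estimate of this feature was 0.32. With the dye taken off, Snora74a was lowest in CBA at −0.37 (SE 0.19) and in BL10 at −0.20 (SE 0.11), and it stood at 0.14 in BALB (SE 0.13), 0.20 in DBA (SE 0.11) and 0.23 in BL6 (SE 0.13). BALB, DBA and BL6 lay within their SEs of each other. This order depends on the dye estimate, since without a dye term the strain range was 0.15 in place of 0.59. The BL10 difference was then −0.06. With the dye taken off, the gap of BL10 from its chain was −0.38 in BL10 1 and −0.07 in BL10 2.

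The duplicate spots of Rnu3a disagreed, with a mean gap of 0.387 beside a strain range of 0.47. They correlated at r = −0.421 over the 8 arrays, where the median feature had 0.540, and they lay 0.97 apart on BALB 2 over BL6 2, at −0.45 and 0.53. The averaged ratios ran from −0.11 to 0.44 over the 8 arrays. Levels were between −0.24 in CBA (SE 0.18) and 0.23 in BL6 (SE 0.13), with BL10 at −0.09 (SE 0.11). From the spots taken singly, the BL10 difference was −0.28 and 0.06, so that its sign depended on the spot. It also turned to 0.25 when BL6 1 was left out.

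**Figure D2:**
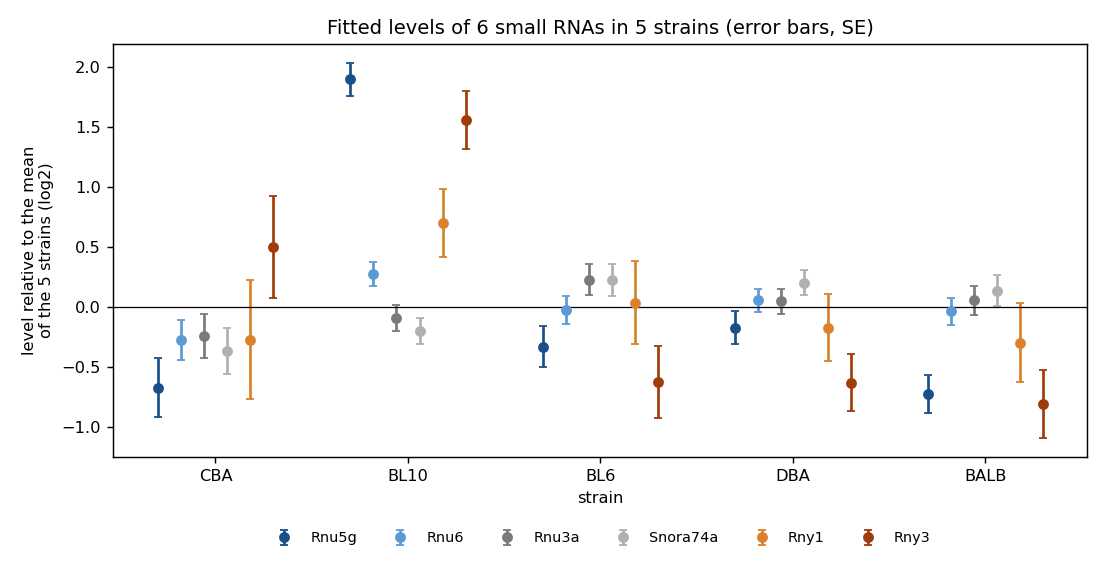
Fitted level of each RNA in each strain, in log2 units relative to the mean of the 5 strains (points, SE as bars, 2 animals in each strain). BL10 stands at 1.90 for Rnu5g, 1.56 for Rny3, 0.70 for Rny1 and 0.28 for Rnu6, while Rnu3a and Snora74a lie below zero there.

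Of the Y RNAs, Rny3 showed the larger strain range, 5.16-fold from the highest to the lowest strain. BL10 exceeded BALB 2 by 1.90, DBA 1 by 1.68, CBA 1 by 2.11 and CBA 2 by 1.04 in the centred log2 ratios. The arrays without BL10 gave −1.20 for DBA 1 over BL6 1, −0.68 for BL6 1 over DBA 2, −0.20 for BALB 2 over BL6 2 and 0.19 for DBA 2 over BALB 1. BL10 was thus the higher partner on all 4 of its arrays, but the size of the ratio of DBA 1 over BL6 1 exceeded that of CBA 2 over BL10 2. Duplicate spots of Rny3 correlated at r = 0.998, with gaps of at most 0.19.

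Relative to the mean of the 5 strains, Rny3 stood at 1.56 in BL10 (SE 0.24), 0.50 in CBA (SE 0.43), −0.62 in BL6 (SE 0.30), −0.63 in DBA (SE 0.24) and −0.81 in BALB (SE 0.28). BL6, DBA and BALB lay within their SEs of each other. CBA was the next strain below BL10, with a gap of 1.06 (SE 0.38). This gap depends on the dye estimate of −0.52, since without it the 2 arrays of BL10 and CBA average 1.57 (SD 0.76). BL10 exceeded BL6 by 2.18 (SE 0.49), with 2.73 in the smaller chain and 1.51 in the larger, and it exceeded BALB by 2.37 (SE 0.46). Against the other strains of their chains, BL10 1 stood at 2.25 and BL10 2 at 1.46. The BL10 difference was 1.28 without BL6 1 and between 1.77 and 2.35 without any other animal that could be left out.

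Rny1 was high in BL10 1 and not in BL10 2. The ratios of BL10 1 were 1.64 over BALB 2 and 1.29 over CBA 1. Those of BL10 2 were 0.996 over DBA 1 and −0.05 over CBA 2, so BL10 was the higher partner on 3 of 4 arrays. Arrays without BL10 gave 0.93 for DBA 2 over BALB 1, 0.65 for BALB 2 over BL6 2, 0.48 for BL6 1 over DBA 2 and −0.63 for DBA 1 over BL6 1, which overlap with the ratios of BL10 2. Against its chain, BL10 1 stood at 1.50 and BL10 2 at 0.13. In the larger chain BL6 1 at 0.47 and DBA 2 at 0.34 lay above BL10 2 at 0.12, relative to the mean of that chain's animals.

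The fitted levels of Rny1 were 0.70 in BL10 (SE 0.28), 0.04 in BL6 (SE 0.35), −0.17 in DBA (SE 0.28), −0.27 in CBA (SE 0.50) and −0.30 in BALB (SE 0.33). Neighbours among BL6, DBA, CBA and BALB differed by less than the sum of their SEs. The BL10 difference of 0.88 became 0.41 without BL10 1 and 1.54 without BL10 2. The duplicate spots of Rny1 correlated at r = 0.993 with a mean gap of 0.0874.

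**Figure D3:**
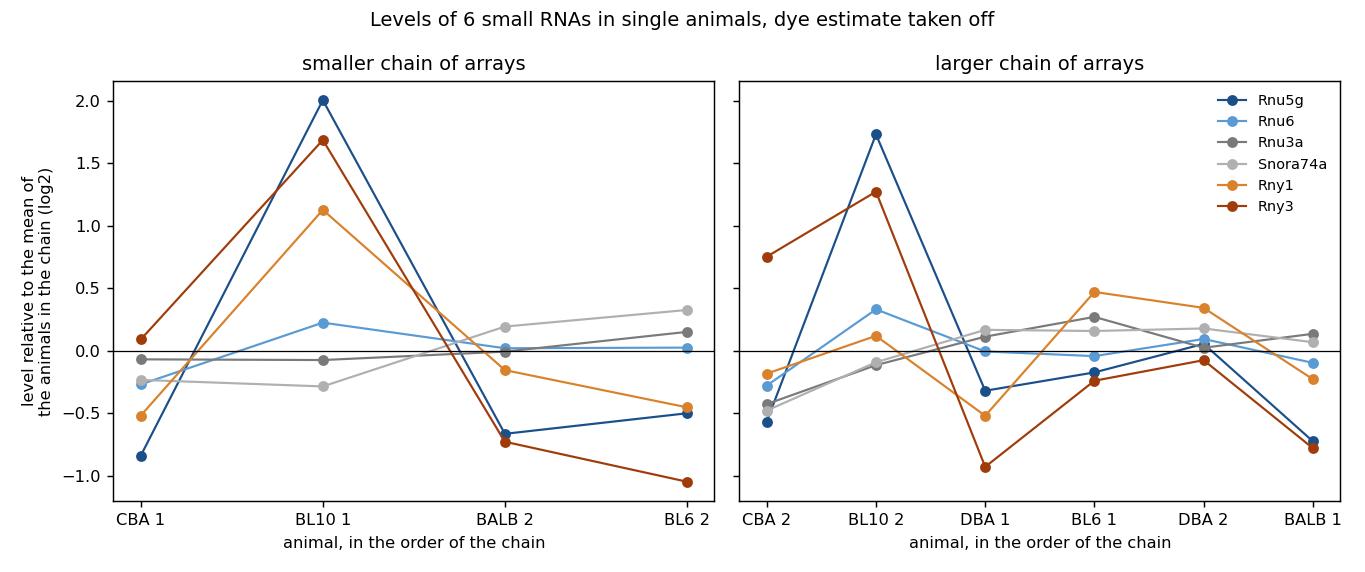
Level of each RNA in each animal, in log2 units relative to the mean of the animals in the same chain, after the dye estimate was taken off (animals in the order in which arrays join them). BL10 is the highest animal of both chains for Rnu5g, Rny3 and Rnu6, and for Rny1 in the smaller chain only.

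The DBA animals lie in the same chain, so their levels can be set side by side. Both Y RNAs were lower in DBA 1 than in DBA 2, by a log2 value of −0.86 for Rny1 and −0.85 for Rny3. For Rnu5g the value was −0.37, for Rnu6 −0.10, for Snora74a −0.01 and for Rnu3a 0.09. These differences take the dye estimate of the fit as given, and with a term for every animal they cannot be told apart from the dye effect. The 2 identical arrays, which name no BL10 animal, gave −0.60 for Rny1, −0.30 for Rnu5g, −0.14 for Rnu6, −0.07 for Rny3, −0.03 for Snora74a and 0.24 for Rnu3a.

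The patterns of the RNAs over the 8 arrays, with the dye estimate taken off, are given as Pearson correlations over arrays that share animals. The largest ratios of Rnu5g are those with BL10, so a high r with Rnu5g largely restates a high BL10 level. The RNAs were chosen with that level known, so no correlation here is used as support. Rnu5g and Rnu6 correlated at r = 0.934, Rnu5g and Rny3 at 0.932, Rny1 and Rny3 at 0.912 and Rnu5g and Rny1 at 0.842. Snora74a had −0.341 with Rnu5g and −0.571 with Rny3, and Rnu3a had −0.0264 with Rnu5g. Among the 35 features with at least 50% of the SD of Rnu5g over the arrays, those most like Rnu5g were unnamed feature 13590 (r = 0.979), unnamed feature 14578 (r = 0.965), Npff (r = 0.963), Scel (r = 0.953) and unnamed feature 8080 (r = 0.943). Feature 14578 had the largest BL10 difference of all features, at 2.53 (SE 0.13). Feature 13590 stood at 2.01 (SE 0.16), and it was also the feature most like Rnu6 (r = 0.977), followed by Rnu5g.

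Npff encodes the precursor of neuropeptide FF and Scel encodes sciellin, a protein of the cornified envelope. Npff stood 1.32 higher in BL10 (SE 0.15), with 1.48 and 1.16 in the smaller and the larger chain, and Scel 1.03 higher (SE 0.22), with 1.54 and 0.54. Npff (r = 0.951) and Rnu5g were the features most like Rny3, and Rny3 and feature 8080 (r = 0.894) those most like Rny1. For Snora74a they were unnamed features 9579 (r = 0.958) and 9689 (r = 0.943), which stood at −0.29 and −0.23 in BL10. For Rnu3a they were Ptger4 (r = 0.933), a prostaglandin receptor, and unnamed feature 12098 (r = 0.928).

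The mRNAs of proteins that bind, make or process these RNAs were put through the same tests. Of 59 features for such proteins, 0 passed limma's moderated F between the strains and 0 passed the contrast of BL10 at an FDR of 10%, against 0.13% and 0.065% of all features. With shares this small, 0 of 59 is not read as a result about these proteins. At an unadjusted p under 0.05 there were 2 between the strains (3.39%, against 14% of all features) and 6 for BL10 (10.2%, against 7.63%). Their BL10 differences ran from −0.64 to 0.28 with a median of −0.07, where the median of all features was −0.04. These counts changed when 1 animal was left out, along with those over all features. Each such fit leaves a strain with 1 animal and has 1 or 2 residual degrees of freedom. The changes are therefore not read as results about the proteins.

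**Figure D4:**
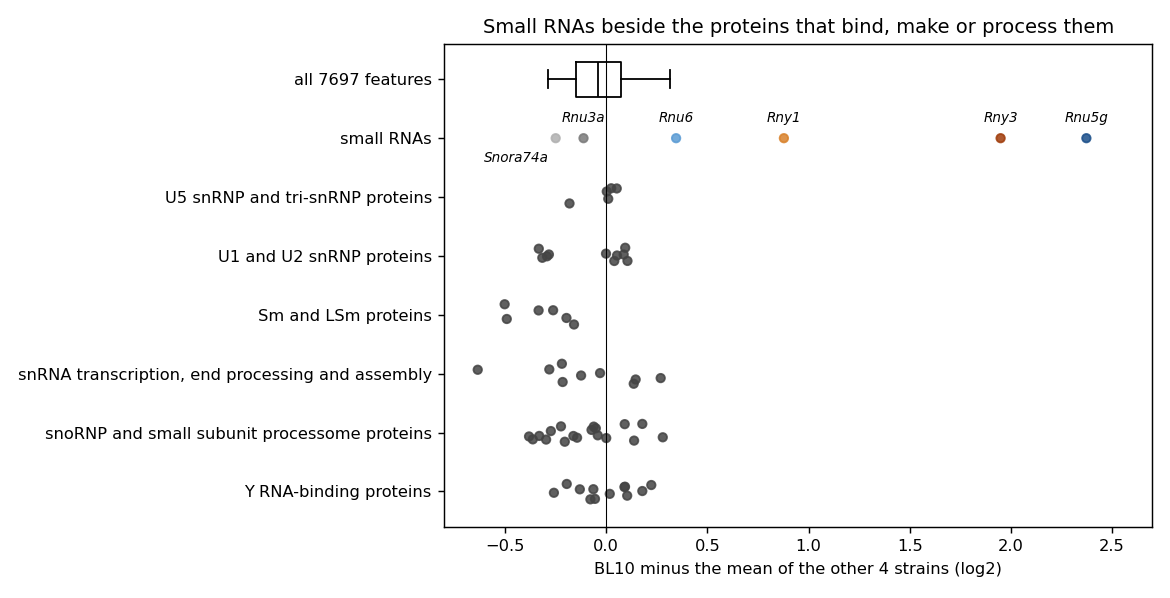
Difference of BL10 from the mean of the other 4 strains (log2) for all 7697 features (box with quartiles, whiskers at the 5th and 95th percentiles), the 6 small RNAs and each protein list (1 point for each feature, with vertical jitter). Rnu5g at 2.37 and Rny3 at 1.95 lie outside the range of the protein features, −0.64 to 0.28. The RNAs were chosen by their strain differences on these arrays, so nothing is read from this contrast.

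Of the 21 listed proteins of the U5 particle and the tri-snRNP, 5 were measured, and their BL10 differences had a median of 0.01. Eftud2, the GTPase of the U5 particle, stood at 0.02 (SE 0.13), Sart1 at 0.05 (SE 0.12) and Sart3, which helps U4 and U6 to pair, at −0.18 (SE 0.12). Tfip11, which acts in release of the spliced intron lariat, stood at 0.01 (SE 0.12), and Snu13, which binds U4 and box C/D RNAs, at 0.00 (SE 0.12). The mRNAs of these proteins thus lay within 0.18 of the mean of the other 4 strains, though single strains stood further off, such as CBA at 0.36 for Tfip11 and for Sart1, where BL10 stood at 0.01 and 0.04. For the 10 measured proteins of U1 and U2, the median was 0.02, and the smallest p-values belonged to U2af2 at −0.33 (SE 0.13, adjusted p = 0.641 from limma), Dhx15 at −0.29 (SE 0.12, adjusted p = 0.645) and Snrpa at −0.28 (SE 0.13, adjusted p = 0.653). U2af2 recognises the pyrimidine tract before the 3′ splice site, Dhx15 is a helicase that takes spliceosomes apart, and Snrpa is a protein of U1. Between the strains Dhx15 and Snrpb2, a U2 protein, had the smallest p-values of this list (unadjusted p = 0.0718 and 0.0779 from limma).

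All 6 measured Sm and LSm features lay lower in BL10, from −0.50 to −0.16 with a median of −0.30, and 0 passed the test, where 60.2% of all features lay below zero. CBA was about as low, since the median levels of the list were −0.25 in CBA, −0.24 in BL10, 0.07 in BALB, 0.19 in DBA and 0.40 in BL6. Snrpe stood at −0.50 (SE 0.22, adjusted p = 0.65 from limma), Snrpd1 at −0.49 (SE 0.23, adjusted p = 0.658), Snrpn at −0.26 (SE 0.14, adjusted p = 0.689) and Lsm2 at −0.33 (SE 0.20). The first 3 belong to the Sm ring carried by U5, and Lsm2 to the ring carried by U6. Among the 9 measured features for transcription, end processing and assembly of small nuclear RNAs, the median was −0.12. Smn1, the core of the assembly complex, stood at −0.64 (SE 0.27, adjusted p = 0.65 from limma), with −1.02 in the smaller chain and −0.23 in the larger. Clns1a, an assembly chaperone, stood at −0.28 (SE 0.16) and Crcp, a subunit of RNA polymerase III, at −0.22 (SE 0.12). Tbp, the TATA-binding protein used by both polymerases at these genes, stood at 0.27 (SE 0.17).

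The 18 features for nucleolar particle and processome proteins had a median BL10 difference of −0.11. Fbl, the methyltransferase of box C/D particles, stood at −0.33 (SE 0.14, adjusted p = 0.647 from limma), Ruvbl1, a helicase of particle assembly, at −0.36 (SE 0.13, adjusted p = 0.641) and Pes1, a factor of the large ribosomal subunit, at −0.30 (SE 0.14, adjusted p = 0.657). Tcof1, a nucleolar cofactor of ribosomal RNA synthesis, and Polr1a, the large subunit of RNA polymerase I, had the smallest p-values between the strains (unadjusted p = 0.0419 and 0.0591 from limma). The 12 features for proteins that bind Y RNAs had a median of −0.02. Ro60 stood at −0.06 (SE 0.12) and Ssb, the La protein, at −0.13 (SE 0.14). In this list Zbp1, Rpl5 and Ybx1 had the smallest p-values for BL10 (−0.20, −0.26 and 0.22, with SE 0.12, 0.22 and 0.22), and Ybx1 and Rpl5 between the strains (unadjusted p = 0.0161 and 0.0696 from limma).

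The nearest measured protein-coding genes in the GRCm38.p6 annotation were looked at as well, a choice made after the values were seen. Igdcc3, near Rnu5g, stood at −0.17 and −0.13 in BL10 from its 2 features (SE 0.14 for both), and Pdia4, near Rny1 and Rny3, at 0.04 (SE 0.17). Matr3, near Snora74a, stood at −0.08 (SE 0.13), Rpf2, near Rnu3a, at 0.07 (SE 0.12), and Smok2a, the nearest measured gene to Rnu6, at −0.10 (SE 0.13). The adjusted p of BL10 from limma was between 0.772 and 0.962 for these features.

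Markers of other cell types that a piece of muscle can hold were set beside these values. Of 52 features for erythroid, adipocyte, leukocyte, endothelial, nerve, fibroblast and muscle fibre markers, 0 passed the contrast of BL10, against 0.065% of all features. Between the strains 1 passed, Pvalb, against 0.13% of all features. The median BL10 difference of the 52 features was −0.02. The erythroid list has 4 measured members with a range of −0.12 to 1.44. Only Hba-a1, an alpha-globin, was far from zero there, at 0.24 in the smaller chain and 2.49 in the larger. The adipocyte list has 6 with a range of −0.16 to 0.95, led by Fabp4, the fatty acid binding protein of fat cells, at 0.30 and 1.74. For Rnu5g the same values were 2.67 and 2.13, for Rny3 2.25 and 1.46 and for Rny1 1.50 and 0.13. Of the 6 fibroblast features, Col3a1 stood at 0.77 (SE 0.21, adjusted p = 0.585 from limma) and Col1a1 at 0.63 (SE 0.14, adjusted p = 0.423), with 0.72 and 0.82, and 0.71 and 0.52, in the smaller and the larger chain. Against these, the 2 Pdgfra features of that list stood at −0.34 and −0.11, and the list had a median of 0.13. The leukocyte list had a median of 0.06 and was led by Cd74 at 0.25, and the endothelial list a median of 0.00 with Emcn at −0.23. In the nerve list 1 of 2 Mbp features stood at 0.26, but 4 of 6 features lay below zero. In the slow fibre list Casq2 stood at 0.36, and again 4 of 6 lay below zero, with a median of −0.02. Of the 9 fast fibre features 7 lay below zero, with Pvalb at −0.45 and a median of −0.14. These counts below zero stand beside a share of 60.2% over all features, and nothing is read from them. The part of these cell types in the levels of the small RNAs was not tested.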

How the data were processed

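RNA of each animal was labelled with Cy5 or Cy3 and hybridised to spotted oligonucleotide arrays. The authors extracted spots with GenePix Pro 3.0, subtracted local background and normalized by VSN in R. Deposited were log ratios, 1 for each of 15552 spots, taken as natural log from the VSN method and as Cy5 over Cy3 from the sample labels. RNA had passed a silica column, and flagged spots are not identified. Whether the column kept short and longer RNAs equally in all samples was not tested.

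Ratios were converted to log2. Duplicate spots, 648 places apart, were averaged, and 80 features of 1 control were treated as 1, leaving 7697 features, of which each array was centred on its median. Names came from the array annotation updated through GRCm38.p6 (6831 of 7776 features with 1 symbol, 7 with several, 938 with none). In limma 3.58.1 (R 4.3.3) the 8 arrays were fitted with strain and dye terms for each feature, and with the animal as replicate. The animal entered through 1 ratio of animal to array variance, 0.446, estimated over all features by restricted maximum likelihood. The fit left 3 residual degrees of freedom. Levels of single animals were solved with MASS (version 7.3.60.0.1), and plots were drawn in matplotlib 3.10.9. p-values were adjusted by Benjamini-Hochberg over all features. Within arrays the correlation between duplicates ranged from 0.646 to 0.857, and the number of arrays limits the precision. The steps were tested on simulated data. The RNAs, the lists and the tests were chosen with earlier results of these data known. Genes were named by rule: the RNAs, the features most like them, the smallest p-values of each protein list and the largest BL10 difference of each marker list. A list of other small structured RNAs matched 0 named features, and the features without a symbol could not be searched.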

Additional observations from a re-analysis of the deposited data

How the results depend on the processing

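The BL10 difference of Rnu5g, Rnu6, Rny1 and Rny3 stayed above zero, and that of Snora74a below, under the 12 alternatives other than leaving out 1 animal, which include each chain alone. Over these it was 2.01 to 3.04 for Rnu5g, 0.30 to 0.47 for Rnu6, 0.13 to 1.50 for Rny1, 1.46 to 2.37 for Rny3 and −0.38 to −0.06 for Snora74a. With equal array spreads Rnu5g moved to 3.04 and Rnu6 to 0.47, and Rnu6 also to 0.47 with quantile normalization. Rnu3a was −0.28 from the first spot and 0.058 from the second. Leaving out 1 animal gave 2.10 to 2.58 for Rnu5g, 0.13 to 0.50 for Rnu6, −0.25 to 0.25 for Rnu3a, −0.43 to −0.06 for Snora74a, 0.41 to 1.54 for Rny1 and 1.28 to 2.35 for Rny3. Leaving out DBA 2 could not be fitted. Each such fit leaves a strain with 1 animal, which is assumed to vary like the others. These fits have 1 or 2 residual degrees of freedom, against 3 in the main fit. The ratio of animal to array variance was estimated anew in each, from 0.0003355 without BALB 1 to 12.21 without BL6 1. The lowest value is the lower limit of the search. Counts over all features changed far more, and the cause was not tested. Against 10 features between the strains and 5 higher and 0 lower in BL10, equal array spreads gave 196, 103 and 58, quantile normalization 133, 53 and 2, the first spot 3 and 3, no dye term 3 and 3, and an FDR of 5% gave 5 between the strains. All 10 arrays as labelled gave 6 and 12, the shared values as BL6 2 over CBA 1 gave 33 and 10, and as BALB 1 over CBA 2 13 higher in BL10. Without 1 animal the counts were 4 to 3771, 5 to 685 and 0 to 598. Between the strains there were 3771 without BALB 2, 3419 without DBA 1, 3004 without BL6 1 and 1400 without BALB 1, and BL10 was higher for 685 without BL6 1 and 624 without DBA 1. The protein features called for BL10 were 1 with equal array spreads and 0 to 14 without 1 animal, and those between the strains 0 to 34. Whether an RNA passed the threshold under these settings is not given as support, since the RNAs were chosen on these arrays. No paired analysis was possible because each array is itself a ratio of 2 animals, so that the pairing of animals on an array is already in every value.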
